A study of Mus musculus with 3 samples.

Results

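The nuclear genes of respiratory complexes II to V were examined in RNA-seq counts of mouse T-helper 1 (Th1) cells. Members were the protein-coding genes whose symbol begins with Uqcr, with Atp5 or with Cox and a digit, together with Sdha, Sdhb, Sdhc, Sdhd, Cyc1 and Cycs. The rule found 58 genes among 50600 annotated genes, of which 21764 are protein-coding. They divide into 4 genes of complex II, 9 of complex III, 1 gene of cytochrome c, 27 of complex IV and 17 of complex V. The rule reads symbols and gene types from the annotation and has no threshold on a measured value.

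Th1 cells are the CD4+ T cell lineage known for interferon gamma, and these were primary cells of the C57BL/6NJ strain. The series holds 1 group of 3 libraries, called replicates 1, 2 and 3, and no treatment, control or other cell type was measured. The labels link a protocol for differentiation of CD4+ T cells, state neither sex nor age, and the file headers carry 24 hr beside the replicate numbers. All 3 libraries have the same donor entry, and separate animals or cultures are not named. The p-values below therefore measure only the spread between these libraries, which may be technical. In bulk RNA, fewer cells of a type and less RNA per cell cannot be told apart.

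Read pairs were counted per gene with both ends aligned, and only on the annotated strand (strand option 1 of the counting program). Total counts were 3553547, 2945353 and 3369468 in replicates 1, 2 and 3. Neither the library kit nor its strand marking is stated in the sources used here. If the option did not match the library, the read pairs of a gene would be placed on the gene opposite it, and its own count would be a residue. Every value here is thus a count on the annotated strand, and whether it measures the gene's own mRNA was not tested. Genes whose exons share bases with an exon on the other strand, called overlapped here, held 68.0%, 77.5% and 70.3% of all counts.

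The T cell label was checked against 8 markers, all of which reached 1 TPM (a count per exon length, scaled so that each library has the same sum) in every library, with a median of 101 ± 28.5 TPM (SD, n = 3). The highest were Trac and Trbc2, T cell receptor constant genes, at 196 ± 73.4 and 117 ± 35.2 TPM, and Cd5 at 110 ± 27.1 TPM. Of 5 Th1 markers, 3 reached 1 TPM throughout. These were Il12rb2, an interleukin 12 receptor gene whose exons overlap Serbp1, at 14.8 ± 2.01 TPM, Stat4, which carries interleukin 12 signals, at 5.01 ± 1.87 TPM, and Tbx21, the gene of the Th1 factor T-bet, with 15, 11 and 8 counts. Ifng, named as the gene of the lineage's cytokine, had 2, 2 and 1. Among 19 markers of other cells, 9 had 0 counts in every library and 5 reached 1 TPM throughout, of which Csf1r, a macrophage receptor gene whose exons overlap Hmgxb3, was highest at 160 ± 6.06 TPM, followed by Cd8b1 at 10.4 ± 2.64 and Cd79a at 7.34 ± 0.653 TPM. The summed level of these 19 markers was 185, 194 and 194 TPM, and their part in the members' values was not tested.

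The respiratory chain of the inner mitochondrial membrane passes electrons from complex I or complex II through ubiquinone to complex III, from there on cytochrome c to complex IV, and finally to oxygen. Complexes III and IV pump protons, and complex V, the ATP synthase, uses the returning protons to make ATP. Complex II is encoded by nuclear genes alone, whereas III, IV and V each combine nuclear subunits with subunits encoded by mitochondrial DNA. T cells increase mitochondrial mass and respiration when they are activated. NRF1, GABPA and YY1 are transcription factors known to bind promoters of many of these genes.

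To show what members share at the DNA level, their promoters were searched on both strands for a core of each factor. RefSeq promoters of 300 bases (250 before the start of transcription and 50 after it, build GRCm38.p6) were given for 44 of the 58 members. The NRF1 core GCATGCGC was found in 8 of the 44 (18.2%), against 3.74% of 16811 protein-coding promoters of the same length. The ETS core CCGGAAG, which GABPA recognises, was found in 16 (36.4%), against 12.3% of all. The YY1 core AAGATGGCG was found in 2 (4.55%), against 2.02%. At least 1 of these cores was present in 20 members (45.5%), against 16.8% of all promoters. These are matches of letters and describe the sequences only. Because the NRF1 core is nearly its own reverse complement, a site can match it on both strands with overlapping letters.

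From each complex and from cytochrome c, the member with the highest level among those with an NRF1 core is shown, since the promoters of different complexes can then be compared directly. Sdhb lies at chr4:140961021-140961320, plus strand. Uqcr11 lies at chr10:80406772-80407071, minus strand. The Cycs promoter is at chr6:50566520-50566819, minus strand. That of Cox6a1 is at chr5:115348909-115349208, minus strand. For Atp5k the window is chr5:108434350-108434649, minus strand. Each is written 5′ to 3′ on the strand of the gene, and capitals mark the NRF1 core and the ETS core or its reverse complement CTTCCGG.
Sdhb: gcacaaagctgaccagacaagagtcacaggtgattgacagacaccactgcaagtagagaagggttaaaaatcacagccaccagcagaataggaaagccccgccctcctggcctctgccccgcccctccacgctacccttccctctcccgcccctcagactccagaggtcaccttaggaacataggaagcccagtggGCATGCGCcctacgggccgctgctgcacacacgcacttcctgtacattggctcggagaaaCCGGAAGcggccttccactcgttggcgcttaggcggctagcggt
Uqcr11: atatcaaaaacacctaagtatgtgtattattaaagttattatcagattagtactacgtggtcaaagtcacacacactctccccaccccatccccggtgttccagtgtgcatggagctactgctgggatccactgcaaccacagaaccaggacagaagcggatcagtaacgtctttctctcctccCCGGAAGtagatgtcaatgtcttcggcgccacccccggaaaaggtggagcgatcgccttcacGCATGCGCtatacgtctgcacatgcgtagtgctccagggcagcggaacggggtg
Cycs: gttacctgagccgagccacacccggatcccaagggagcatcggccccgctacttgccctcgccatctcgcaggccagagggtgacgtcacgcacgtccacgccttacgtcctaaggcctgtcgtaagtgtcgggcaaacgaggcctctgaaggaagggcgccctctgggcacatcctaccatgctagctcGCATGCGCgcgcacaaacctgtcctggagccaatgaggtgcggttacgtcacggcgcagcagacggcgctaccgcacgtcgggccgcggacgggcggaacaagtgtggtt
Cox6a1: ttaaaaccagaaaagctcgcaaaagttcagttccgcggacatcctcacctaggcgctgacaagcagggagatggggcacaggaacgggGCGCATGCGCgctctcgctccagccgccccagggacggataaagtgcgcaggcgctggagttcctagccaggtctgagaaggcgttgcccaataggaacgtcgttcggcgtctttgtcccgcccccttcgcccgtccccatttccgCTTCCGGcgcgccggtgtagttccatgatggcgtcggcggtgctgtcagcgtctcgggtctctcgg
Atp5k: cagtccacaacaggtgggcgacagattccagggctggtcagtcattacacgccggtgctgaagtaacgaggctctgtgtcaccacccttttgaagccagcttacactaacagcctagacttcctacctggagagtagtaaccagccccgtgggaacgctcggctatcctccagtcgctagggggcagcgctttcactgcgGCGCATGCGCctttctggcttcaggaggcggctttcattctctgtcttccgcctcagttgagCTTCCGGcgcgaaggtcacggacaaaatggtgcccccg
In Cox6a1 and Atp5k the NRF1 core matched on both strands at 1 place. The ETS core stood in 4 of the 5 promoters shown, with Cycs as the exception.

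Most members were counted in every library. At 1 TPM or more in each of the 3 libraries, 50 of 58 members were detected, whereas 41.2% of protein-coding genes reached this level. Detection covered 4 of 4 members of complex II, 9 of 9 of complex III, Cycs, 21 of 27 of complex IV and 15 of 17 of complex V. By role, 40 of 41 broadly expressed subunits, 8 of 10 assembly and coupling factors and 2 of 7 paralogs known for expression restricted to certain tissues were detected. The broad subunit below the level was Atp5l. The other undetected members were Cox16, Atp5s, Cox6a2, Cox6b2, Cox7b2, Cox8b and Cox8c, and Cox7b2 and Cox8c had 0 counts in every library.

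The median level of the 58 members was 53.1, 33.3 and 45.5 TPM in replicates 1, 2 and 3, or 44.0 ± 10 TPM (SD, n = 3). Over protein-coding genes the median was 0.386 ± 0.0703 TPM, and over the detected ones it was 11.8, 7.27 and 10.2 TPM. Replicate 2 was thus the lowest library for the members and also for protein-coding genes in general, and TPM values are shares of a library that other genes also fill. Together the members took 0.479%, 0.376% and 0.438% of the counts (exact 95% binomial intervals 0.472 to 0.486, 0.369 to 0.383 and 0.431 to 0.446%, which cover counting error only).

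**Figure D1:**
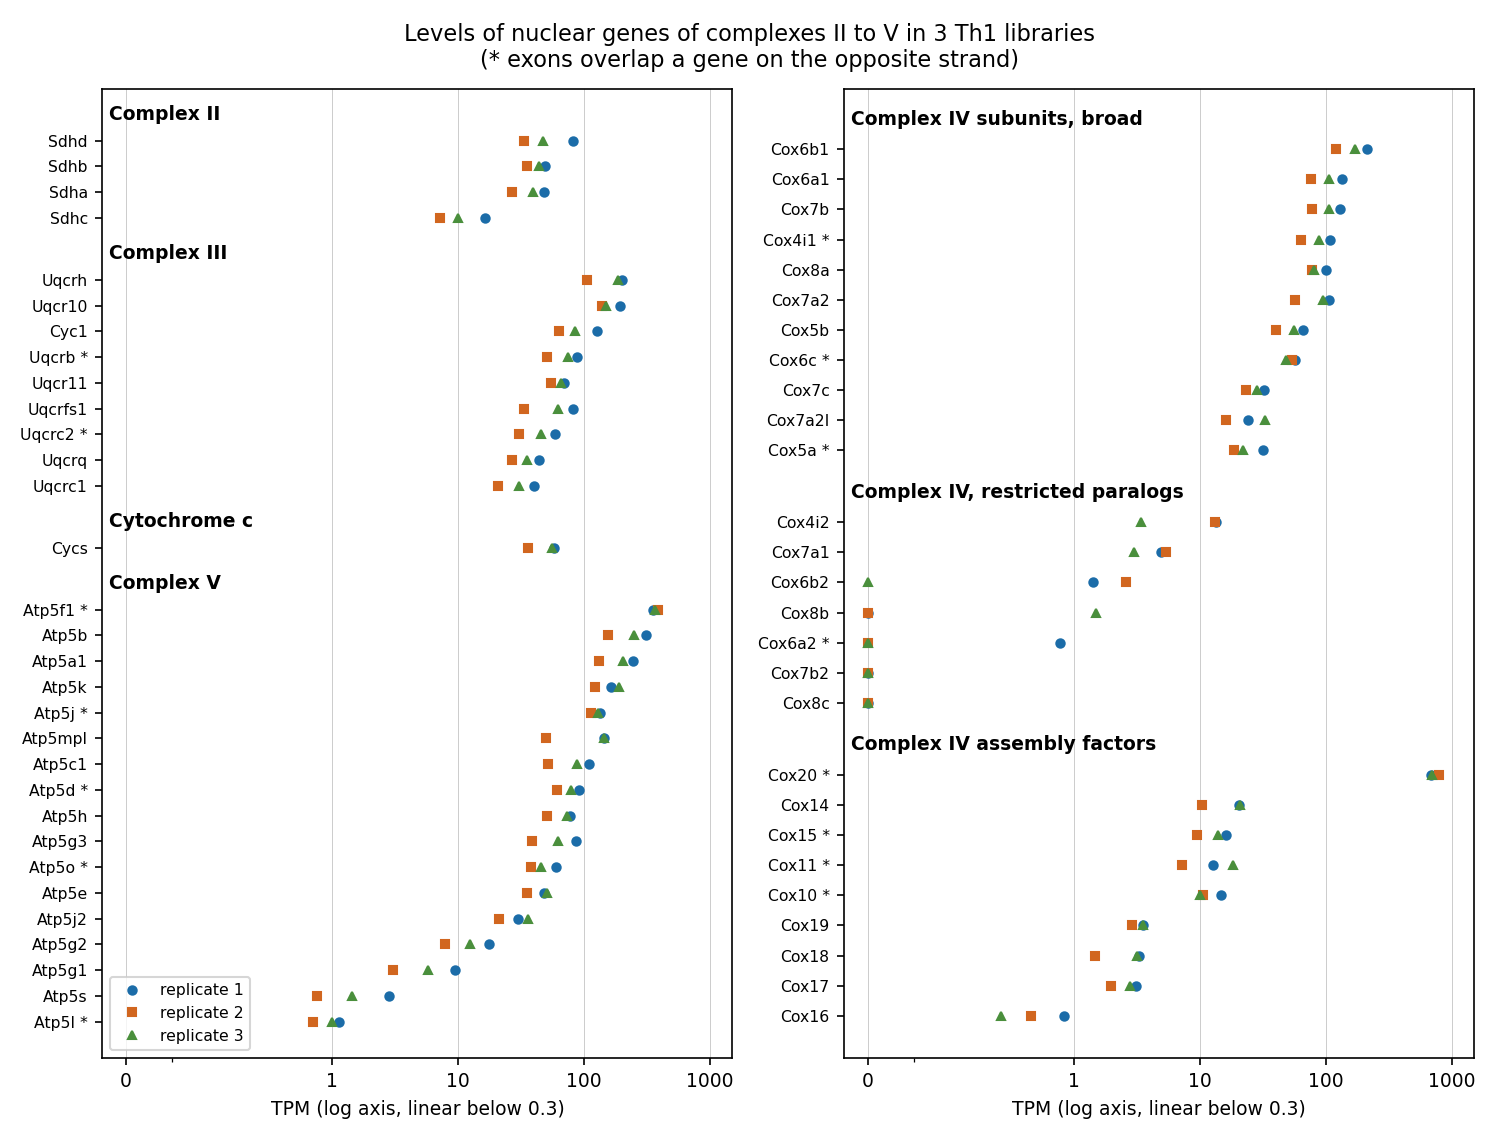
TPM of each of the 58 members (rows) in replicates 1 (circles), 2 (squares) and 3 (triangles), by complex and role, on a log axis that is linear below 0.3; a star marks members whose exons overlap a gene on the opposite strand. Broad subunits mostly sit between 10 and 400 TPM with replicate 2 on the left, and Cox20 at 723 TPM is the highest member. Of the 7 restricted paralogs, 2 reached 1 TPM in every library, Cox4i2 at a mean of 9.94 and Cox7a1 at 4.42 TPM. The others sit nearer 0.

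Ranked by median within each library, complexes III and V came first in either order. Complex V stood at 85.9, 50.1 and 73.1 TPM and complex III at 81.4, 50.9 and 65.1 TPM, which does not separate them. Below these were cytochrome c, complex II and complex IV, in that order in each library. These orders rest on exon length. The complex IV median, 16.1, 10.5 and 18.4 TPM, covers roles of different level. Its 11 broad subunits had medians of 99.4, 57.0 and 80.5 TPM, above the medians of the other complexes in each library on this length, while its 9 assembly factors had 12.6, 7.23 and 10 TPM. With the median coding transcript length, an alternative chosen after seeing the data, complex V came first at 142, 94.6 and 130 TPM, before the broad subunits of complex IV at 119, 67.7 and 102 and complex III at 78.5, 64.0 and 74.6 TPM. On that length complex II was above cytochrome c in replicate 1 and below it in replicates 2 and 3.

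Complex II oxidises succinate and belongs to the tricarboxylic acid cycle as well as to the respiratory chain. Sdha, the flavoprotein that binds succinate (ENSMUSG00000021577, mm10 chromosome 13, 74322254 to 74350280), stood at 47.8, 26.8 and 39.7 TPM. Sdhb, the iron-sulfur subunit (chromosome 4, 140961203 to 140979193), stood at 49.3, 35.5 and 44.2 TPM. Sdhd, a membrane anchor (chromosome 9, 50596357 to 50603812), had 81.2, 33.5 and 46.9 TPM. The other anchor gene, Sdhc (chromosome 1, 171127165 to 171150603), was lowest of the 4 in every library, at 16.5, 7.22 and 10 TPM. Sdha, Sdhb and Sdhd overlapped in their ranges over libraries, at 38.1 ± 10.6, 43.0 ± 6.99 and 53.9 ± 24.6 TPM.

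In complex III, which moves electrons from ubiquinol to cytochrome c, the small acidic hinge subunit Uqcrh (ENSMUSG00000063882, chromosome 4, 116066965 to 116075071) had 200, 105 and 185 TPM. Uqcr10, a small membrane subunit (chromosome 11, 4701973 to 4704342), had 191, 139 and 150 TPM. Cyc1, the heme-bearing subunit that hands electrons to cytochrome c (chromosome 15, 76343523 to 76345934), had 126, 63.2 and 85.2 TPM. Uqcrh and Uqcr10 exchanged places between libraries, and both lay above Cyc1 in each. By transcript length Uqcrh was above Uqcr10 in each library, at 339 ± 101 against 172 ± 26.7 TPM. The Rieske iron-sulfur subunit Uqcrfs1 stood at 58.9 ± 24.3 TPM, and the core proteins Uqcrc1 and Uqcrc2 at 30.4 ± 9.47 and 44.8 ± 14.3 TPM. Uqcrb, Uqcr11 and Uqcrq, which are small subunits, were at 70.8 ± 18.4, 62.8 ± 7.52 and 35.3 ± 8.41 TPM.

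Cycs encodes somatic cytochrome c, the mobile carrier between complexes III and IV and a trigger of apoptosis once it leaves mitochondria. It lies on chromosome 6 at 50562563 to 50566538 (ENSMUSG00000063694) and had 374, 213 and 352 counts, or 57.8, 35.8 and 55.3 TPM. Hccs, which attaches heme to cytochrome c, stood at 8.83 ± 2.58 TPM and Atpif1, an inhibitor of the ATP synthase, at 31.7 ± 1.89 TPM, both overlapped and neither called in the test described below. Cyct, the testis form, had 0 counts in every library, which allows up to 3 counts, or 0.844, 1.02 and 0.89 CPM (counts scaled to library size).

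Complex IV reduces oxygen to water, and its nuclear subunits surround a catalytic core encoded in mitochondria. Cox6b1 (ENSMUSG00000036751, chromosome 7, 30616861 to 30626151) was the highest subunit by exon length, at 213, 121 and 169 TPM. Cox6a1 (chromosome 5, 115345642 to 115348981) followed at 134, 76.6 and 106 TPM, and Cox7b at 129, 76.8 and 106 TPM. Cox6a1 and Cox7b did not differ beyond their spread, while Cox6b1 lay above both in every library. Cox4i1, Cox7a2 and Cox8a were close to each other, at 86.4 ± 22.3, 85.6 ± 25.4 and 85.9 ± 11.8 TPM. By exon length the lower subunits were Cox5b and Cox6c at 53.8 ± 13.2 and 52.8 ± 4.51 TPM, and Cox7c, Cox7a2l and Cox5a at 27.9 ± 4.44, 24.2 ± 8.35 and 24.1 ± 6.91 TPM. Cox6c, whose exons add up to 3567 bases against a median transcript length of 606, would be the highest subunit by transcript length, at 249 ± 21.1 TPM against 195 ± 50.4 for Cox6b1, and it had more counts than Cox6b1 in every library.

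The assembly factors of complex IV spanned from 0.528 to 723 TPM. Cox20, a chaperone of a core subunit that mitochondria encode (ENSMUSG00000026500, chromosome 1, 178319130 to 178322693), had 1148, 1221 and 1147 counts, or 684, 791 and 695 TPM. Its exons share 804 of 883 bases with Hnrnpu on the opposite strand. Cox10 and Cox15, the enzymes that make heme A, stood at 11.7 ± 2.47 and 13.2 ± 3.39 TPM, and both are overlapped. Cox11, Cox17 and Cox19, which act in copper delivery, stood at 12.7 ± 5.6, 2.62 ± 0.576 and 3.33 ± 0.371 TPM. Cox14, Cox18 and Cox16, which act on newly made core subunits, were at 17.1 ± 5.93, 2.65 ± 1.01 and 0.528 ± 0.285 TPM, and Cox16 had 6, 3 and 2 counts. Apart from Cox20, no assembly factor reached the level of the lowest broad subunit of the complex, Cox5a, in mean TPM.

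Complex V consists of a catalytic head, a peripheral stalk that holds it and a membrane rotor. Atp5f1, a stalk subunit (ENSMUSG00000000563, chromosome 3, 105942698 to 105960099), was highest at 351, 388 and 364 TPM, and its exons overlap Wdr77 and Gm42890. Atp5b, the catalytic beta subunit of the head (ENSMUSG00000025393, chromosome 10, 128083273 to 128090391), had 311, 155 and 248 TPM. The alpha subunit gene Atp5a1 had 245, 132 and 205 TPM. The 3 genes kept this order in each library, and by transcript length too, where Atp5j rose to 425 ± 29.7 TPM beside Atp5b at 419 ± 132. In the head, Atp5c1, Atp5d and Atp5e, the gamma, delta and epsilon subunits, were lower, at 83.2 ± 29.6, 77.0 ± 14.8 and 45.0 ± 8.29 TPM. In the stalk, Atp5j was at 126 ± 11, Atp5h at 67.1 ± 14.4 and Atp5o, the oligomycin-sensitivity subunit, at 47.8 ± 10.7 TPM.

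Among the small membrane subunits of complex V, Atp5k stood at 158 ± 32.4 TPM, Atp5mpl at 113 ± 54.1 TPM and Atp5j2 at 29.0 ± 7.52 TPM. Atp5s, a coupling factor, had 8, 2 and 4 counts. Atp5l, another membrane subunit, had 14, 8 and 12 counts and 1.14, 0.71 and 0.997 TPM, the lowest mean of the 41 broad subunits by exon length. The annotated exons of Atp5l add up to 6443 bases, whereas its coding transcripts have a median length of 544 bases, and on that length its level would be 8.97 ± 1.94 TPM, close to Atp5g1 at 8.87 ± 4.57. Its exons overlap Gm30934, which had 516, 452 and 456 counts. Atp5l also has 11 pseudogene copies in the annotation at 90% identity or more over at least 80% of its coding sequence, and these held 16, 26 and 23 counts. The part of length, overlap and copies in its low value was not tested.

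Over all members, 20 of 58 had at least 1 such copy, in 56 pseudogenes. The copies together had 57, 66 and 83 counts, beside 17016, 11077 and 14772 for all 58 members. The sources used here do not say how the authors' alignment treated read pairs that fit both a gene and its copies. The counts of these 20 members are thus uncertain, and the counts on the copies set no bound on this.

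Several subunits have paralogs that replace each other in different tissues, and their shares were taken as counts per kb of exon within each family. Of the c subunits of the rotor, which yield the same mature protein, Atp5g3 held 76.1%, 77.9% and 77.2% in replicates 1, 2 and 3. Atp5g2 held 15.6%, 16.0% and 15.6%, and Atp5g1 held 8.35%, 6.16% and 7.23%. The 3 genes had 356, 146 and 251, then 56, 23 and 39, and then 88, 26 and 53 counts. By plain counts Atp5g1 was above Atp5g2 in each library, at 15.5 ± 2.13% against 11.5 ± 0.306% (its exons add up to 4912 bases and those of Atp5g2 to 1675). The order of these minor forms depends on length, whereas Atp5g3 was first by either measure.

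Cox4i1 held 89.0%, 82.9% and 96.3% of its family and Cox4i2, a form known from lung, the rest. Cox4i2 had 20, 18 and 5 counts, so its share of counts was 5.92%, 9.47% and 1.93%, with exact 95% intervals of 3.65 to 8.99%, 5.71 to 14.6% and 0.63 to 4.45%. The intervals of replicates 2 and 3 do not meet, and replicate 3 had the lowest share. Cox7a2 held 78.5%, 72.8% and 72.6% of its family, Cox7a2l, which is known for joining complexes III and IV in supercomplexes, 17.8%, 20.4% and 25.1%, and the muscle form Cox7a1 3.67%, 6.83% and 2.3%. Cox7a1 rested on 5, 5 and 3 counts.

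In the other families the broad form took nearly every count. Cox6a1 had 179, 94 and 139 counts and the muscle form Cox6a2 had 1, 0 and 0. Cox6b1 had 287, 150 and 224 counts against 3, 5 and 0 for the testis form Cox6b2. Cox7b had 298, 163 and 241 counts and Cox7b2 none, so its share of plain counts, without correction for length, could be up to 1.23%, 2.24% and 1.52% (upper bounds of exact 95% intervals). Cox8a had 103, 74 and 82 counts, Cox8b 0, 0 and 1 and Cox8c none. Within these families the longest identical stretch of coding sequence was 20 bases, between Atp5g1 and Atp5g2, attggctatgccaggaaccc, which is shown because a read of that length alone could not be placed. Other pairs shared at most 14 bases.

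**Figure D2:**
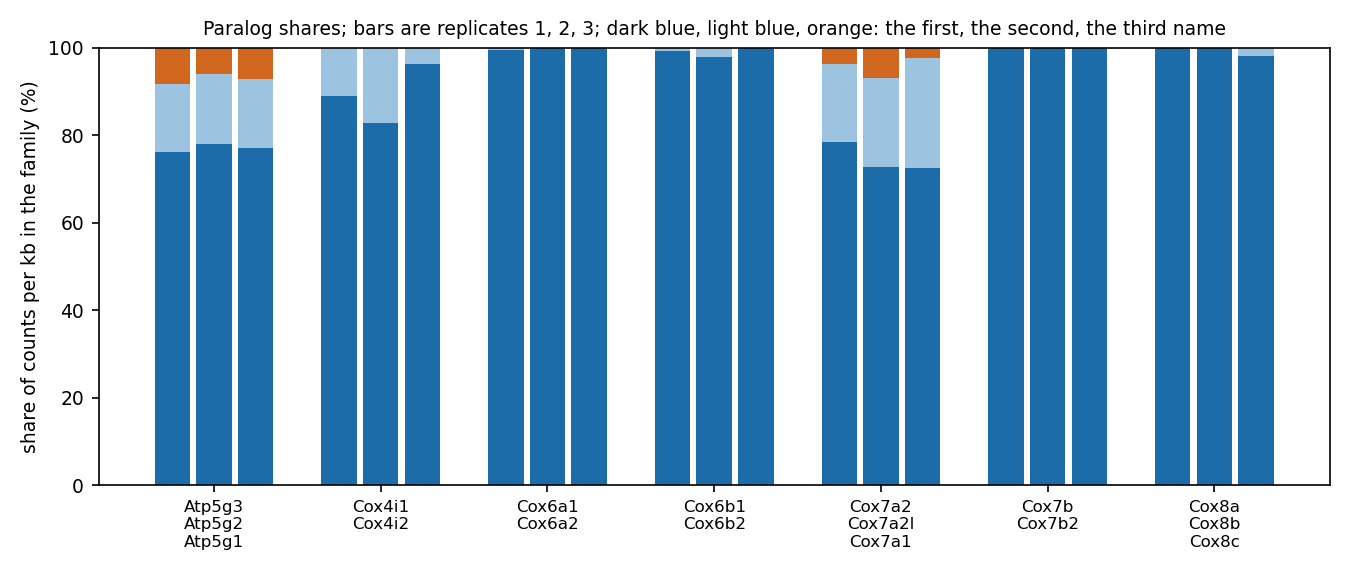
Share of each paralog in its family's counts per kb of exon (percent, bars from 0 to 100) in replicates 1, 2 and 3 of each family; colours follow the order of names under the bars. Atp5g3 holds 76.1 to 77.9% in the 3 libraries, Cox7a2 72.6 to 78.5% and Cox4i1 82.9 to 96.3%.

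Exon overlap with a gene on the other strand concerned 15 of the 58 members (25.9%), against 22.1% of protein-coding genes. A further 3 members have a span that meets that of a gene on the other strand but share no exon base with it. Another 25 have a gene on the other strand within 5000 bases, and 15 have none of these. In 11 of the 15 overlapped members the opposite-strand gene with the most counts had more than the member, summed over libraries. The same share was not computed over all overlapped genes, so this count cannot be read as particular to the members. Each member was then paired with its opposite gene of most counts, a choice that can only lower the ratio where there are several. Over the 14 such pairs with counts on the opposite gene, the median of member over opposite count was 0.18, 0.112 and 0.134 in the 3 libraries, or 0.142 ± 0.0348. Per kb of exon this ratio was 0.283.

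Several of the opposite genes with high counts are long noncoding or antisense genes. Cox5a (chromosome 9, 57521274 to 57532426, plus strand) had 127, 68 and 86 counts, while Gm26631 (57531287 to 57537629, minus strand), which shares 269 exon bases with it tail to tail, had 5915, 6282 and 6075. Atp5o had 255, 151 and 193 counts and D430001F17Rik, which meets it head to head, had 1952, 2051 and 2151. Atp5l and Gm30934 differed 43.8 ± 11 times and Cox10 and 9630013K17Rik 5.66 ± 1.24 times, each time with more counts on the opposite gene. In every one of these pairs the opposite gene was above the member in each library. Other such genes were below the member. Gm15976, a second antisense gene opposite Atp5o, had 44, 37 and 28 counts, and Gm42890, a processed transcript opposite Atp5f1, had 2, 1 and 6.

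Several protein-coding neighbours were also above the member in each library. Uqcrc2 had 285, 135 and 216 counts and Pdzd9, tail to tail with it over 504 bases, had 2777, 2905 and 2680. Cox4i1 had 318, 172 and 254 counts against 3430, 2650 and 2952 for Emc8, a membrane protein insertion gene that starts inside it head to head. Cox11, at 34, 18 and 49 counts, shares 688 of its 1423 exon bases with Tom1l1, which had 1521, 1527 and 1510. Uqcrb had 145, 78 and 122 counts against 1346, 1227 and 1211 for Gm10767. In each of these 4 pairs the member was lowest in replicate 2 by count, and no opposite gene fell by as large a factor there.

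The 5 overlapped members with the most counts were Atp5f1, Cox20, Atp5j, Cox6c and Atp5d. Atp5f1 had 2741, 2787 and 2795 counts against 115, 55 and 85 for Wdr77, a methylosome gene with which it shares 337 bases. Cox20 had 1148, 1221 and 1147 against 5004, 3788 and 4911 for Hnrnpu, which encodes a nuclear RNA-binding protein. Atp5j had 798, 621 and 763 against 1233, 1366 and 1470 for Gabpa, the gene of the ETS factor named above, which starts head to head with it. Cox6c had 386, 334 and 320 against 141, 79 and 122 for Vps13b, and Atp5d had 333, 207 and 284 against 353, 363 and 353 for Cbarp. Atp5f1 and Cox6c were thus above the opposite gene in every library, Cox20, Atp5j and Atp5d below it. Cox15 was also above both of its opposite genes, at 150, 81 and 128 counts against 11, 11 and 14 for Entpd7.

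**Figure D3:**
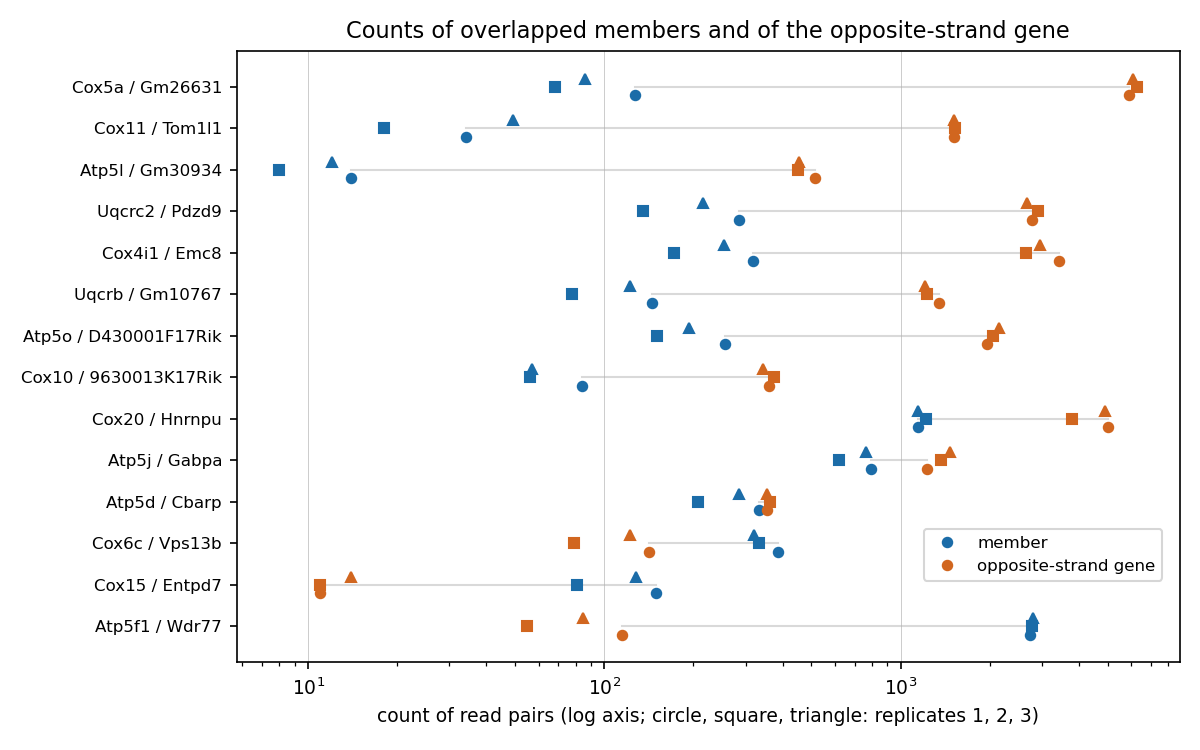
Counts of read pairs (log axis) of 14 overlapped members (blue) and of the opposite-strand gene with the most counts (orange) in replicates 1, 2 and 3 (circle, square, triangle). The pairs run from Cox5a, with 68 to 127 counts against 5915 to 6282 on Gm26631, to Atp5f1, with 2741 to 2795 against 55 to 115 on Wdr77.

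Whether members differed between libraries by more than counting error was asked with a chi-square test of each gene's 3 counts at library sizes scaled by TMM, a trimmed mean of ratios between libraries. Of the 58 members, 47 passed a filter on low counts (40 broad subunits and 7 assembly factors, with no restricted paralog), and 19 of the 47 (40.4%) were called at a Benjamini-Hochberg adjusted p under 0.05 over all tested genes. Among all 10216 tested genes 37.8% were called, so over all tested members the share was near the background at this setting. Without the filter, 19 of 56 members (33.9%) were called, against 19.3% of all genes. Of the 47 tested members, 15 were called and lowest in replicate 2, a higher share than the 1503 of 10216 tested genes (14.7%). Called and highest there were 4 of the 47, a lower share than the 2133 of 10216 (20.9%), both without a test. With library totals in place of TMM this split was 33 to 2 of 35 calls (74.5% of tested members, and 51.7% of all tested genes), and with TMM from genes without overlap it was 7 to 4 of 15 (31.9% and 33.1%).

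The calls were also split by position relative to opposite-strand genes. Without overlap, 13 of 34 tested members (38.2%) were called, a higher share than the 26.5% of all tested genes without overlap. All 13 were lowest in replicate 2 with TMM. However, Atp5j2, Cyc1, Sdhc and Sdhd had their lowest value in another replicate when TMM came from genes without overlap. Atp5j2 did so also with DESeq2 size factors. Among overlapped members 6 of 13 (46.2%) were called, against 53.0% of all tested overlapped genes. Of these 6, 2 were lowest and 4 highest in replicate 2. Counting every tested member, called or not, 26 of 34 without overlap were lowest in replicate 2, against 3729 of 5854 such genes (63.7%). Of the overlapped members 6 of 13 were, against 1130 of 4362 overlapped genes (25.9%).

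Between replicates 1 and 2 the members without overlap had a median difference of -0.33 in log2 CPM, with a range from -1.11 to 0.19, and the 5854 tested genes without overlap had -0.28. Overlapped members had a median of -0.16 and all 4362 tested overlapped genes 0.36. The median over all tested genes was -0.10. The opposite-strand genes of the members, 15 of them tested, had a median of 0.51. Of these 15, 2 were lowest in replicate 2, against 25.9% of all tested overlapped genes. The median difference of members without overlap was thus close to that of other genes of their position. Of the 8 T cell markers, 5 were called, each lowest in replicate 2. Of all tested genes 37.8% were called, and 14.7% were called and lowest there. The other 3 markers (Cd3e, Trbc2 and Cd5) were not called. The 8 summed to 922, 492 and 769 TPM, and their part in the members' values was not tested. Other scalings moved the median of all tested genes to between -0.46 and 0.11, and relative to it the overlapped members stayed lower and their sign turned to 0.06 with TMM from genes without overlap.

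**Figure D4:**
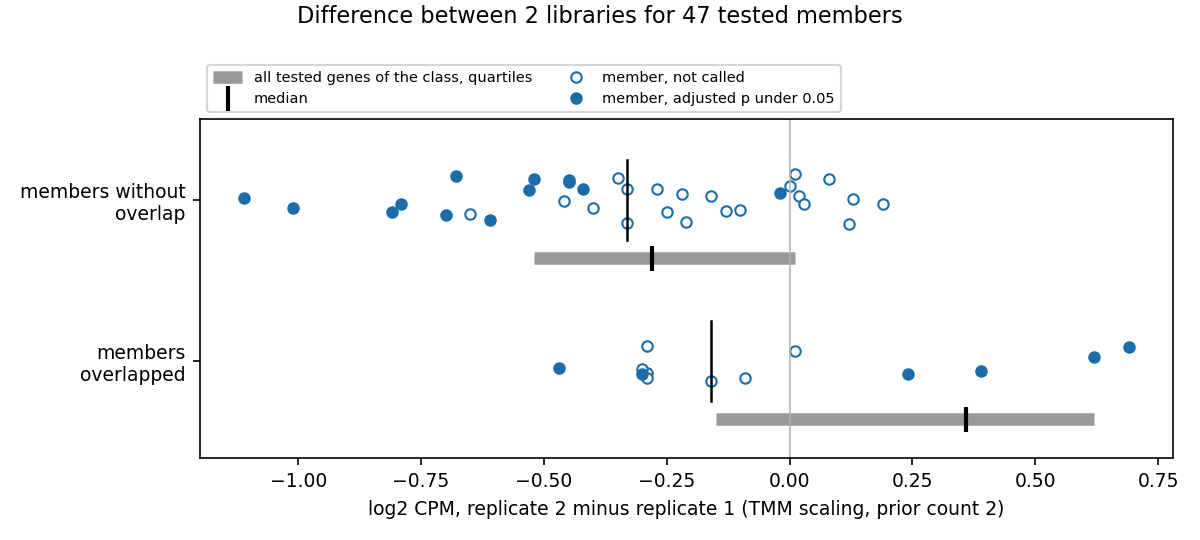
Difference in log2 CPM between replicate 2 and replicate 1 for the 47 tested members (points, filled where the adjusted p was under 0.05; short black lines are the members' medians) with and without exon overlap; grey bars span the quartiles and black ticks the median of all tested genes of that class. Members without overlap centre on -0.33 beside -0.28 for their class, and overlapped members on -0.16 beside 0.36.

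The smallest adjusted p-values of the chi-square test belonged to Atp5f1, Cox20 and Atp5b. Atp5f1 had 699, 1080 and 806 scaled CPM (adjusted p = 9.38e-58 by the chi-square test), and Cox20 had 293, 471 and 331 (adjusted p = 1.84e-31). Both are overlapped and were highest in replicate 2. Atp5b, without overlap, was lowest there, at 638, 443 and 566 scaled CPM (chi-square test, adjusted p = 2.22e-22). These 3 members were called under each of 10 other settings of the test, and no other called member was.

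The called members with the largest adjusted p-values were Cox11, Atp5j and Sdhc. Cox11 had 8.67, 6.95 and 14.1 scaled CPM (chi-square test, adjusted p = 0.0338), Atp5j had 203, 240 and 220 (adjusted p = 0.0272) and Sdhc had 26.0, 15.8 and 17.6 (adjusted p = 0.0212). Cox11 stood out by a high replicate 3, Sdhc by a high replicate 1. Each of these 3 calls was lost under at least 3 of the 10 other settings.

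By complex, 2 of 4 tested genes of complex II were called (Sdhc and Sdhd), 5 of 9 of complex III (Cyc1, Uqcrc1, Uqcrc2, Uqcrfs1 and Uqcrh), 3 of 18 of complex IV (Cox11, Cox20 and Cox6c) and 9 of 15 of complex V, while Cycs was not. Over all tested genes the share was 37.8%, so complex IV lay below it and complexes II, III and V above, in counts too small for a comparison and without a test. In complex V the called genes were Atp5a1, Atp5b, Atp5c1, Atp5f1, Atp5g1, Atp5g3, Atp5j, Atp5j2 and Atp5mpl. Atp5g1 had the largest difference between replicates 2 and 1 among the tested members, -1.11 in log2 CPM, from 22.4 to 10 scaled CPM, and Atp5mpl followed at -1.01. Replicate 2 weighed most in these calls: without it 6 members were called (9.67% of all tested genes), against 11 (25.5%) without replicate 1 and 18 (39.3%) without replicate 3. The members' own shares were 12.8%, 23.4% and 38.3%, near those of all genes.

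In the other parts of the pathway, 37 of 37 nuclear subunits of complex I were detected, with a median of 33.1 ± 6.32 TPM, and 7 of 35 tested ones were called, 6 of them lowest in replicate 2 (37.8% of all tested genes were called, and 14.7% called and lowest there). The 3 highest were Ndufa2, which is overlapped, at 114 ± 8.51, Ndufs6 at 84.3 ± 14.0 and Ndufa6 at 75.1 ± 12 TPM. Of 26 assembly factors outside the rule 22 were detected, and 6 of 20 tested ones were called (37.8% of all), 1 of them lowest in replicate 2. Surf1, Sco2 and Coa6, which act in complex IV assembly, were highest at 308 ± 18.0, 252 ± 17.2 and 173 ± 16.1 TPM, and all 3 are overlapped, as Cox20 is. Of 11 regulators 10 were detected and 5 of 10 tested ones called, beside the same 37.8%. Gabpa stood at 130 ± 13.7, Yy1 at 62.8 ± 6.68 and Esrra at 37.2 ± 2.92 TPM, and Ppargc1a had 0 counts. Gabpa and Esrra are overlapped, and Yy1 is not.

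The subunits of complexes III to V that mitochondrial DNA encodes were unevenly counted. mt-Cytb of complex III had 2151, 1028 and 2093 counts and mt-Co1 of complex IV had 3962, 1565 and 3431. For mt-Co2, mt-Co3, mt-Atp6 and mt-Atp8 the files gave 0 counts in every library. In contrast mt-Nd6, a complex I subunit on the other mitochondrial strand and opposite mt-Nd5, had 20093, 25190 and 26553 counts. The nuclear and mitochondrial subunits of complexes III to V therefore cannot be compared in level from these counts. The part of the strand option in these mitochondrial counts was not tested.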

How the data were processed

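Gene counts of 3 RNA-seq libraries were used. The authors counted read pairs per gene with featureCounts 1.4.6-p4 on exons of GENCODE M13 with strand option 1, per the file headers, and the build is mm10 per the labels. No aligner version is stated in the sources used here. The assay is labelled total RNA, while the linked library protocol is named for polyA+ RNA. Symbols and biotypes came from GENCODE M21 by identifier (50376 of 50600 matched).

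From these deposited counts and the exon lengths beside them, TPM and CPM were derived. The chi-square test (2 degrees of freedom) ran on genes kept by filterByExpr at TMM sizes (edgeR 4.0.16, R 4.3.3), with log2 CPM at a prior count of 2. It was also run on simulated counts. These held only Poisson counting error and changes put into replicate 2, so they do not speak to the spread between real libraries. Other steps used scipy 1.17.1, pandas 2.3.3 and numpy 2.4.6 in Python 3.11.15, and DESeq2 1.42.0 gave alternative size factors. Pseudogene copies were searched with blastn 2.17.0. An exact sign-flip test over 3 libraries cannot go below p = 0.25 and was not run.

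Values in every library are given for the 3 highest members of each complex, paralog families, the 5 overlapped members with most counts, and the 3 smallest and 3 largest adjusted p-values among calls; other genes are the opposite-strand genes, mitochondrial subunits and the 3 highest of each context list. Ifng, Cyct, Ppargc1a, Cox6c by transcript length and the remaining pairs with an opposite-strand gene were added after their values were seen. Members and lists were chosen with earlier results of these data known.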

Additional observations from a re-analysis of the deposited data

How the results depend on the processing

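Of 100 recomputed values 13 moved and 1 changed sign; the other 86 stayed within the tolerance, which was 1 SD over libraries for levels, shares and ratios, 1.5 times for counts and, for log2 medians, 1 SD over members. Called members numbered 19, and 35 with library totals (51.7% of all tested genes), 36 with TMM from overlapped genes (53.0%) and 6 to 18 with a library left out (9.67 to 39.3%). The members' median of 44.0 TPM became 59.4 with the median coding transcript length, an alternative chosen after seeing the data, which also moved complex V to 122 TPM, Atp5g3 to 80.1% and Cox7a2 to 79.7% of their families. Complex IV was 79.0 TPM over broad subunits and 9.07 TPM without overlapped members. By plain counts Atp5g3 held 73.1%. Relative to replicate 1, the log2 median in replicate 2 ran from -0.70 (TMM from overlapped genes) to -0.12 (TMM from genes without overlap) for members without overlap, and from -0.53 to 0.06 for overlapped members under the same scalings. The ratio of overlapped members to the opposite gene was 0.283 per kb. The causes were not tested, beyond what each alternative changes by construction. No paired analysis was possible because the series has a single group. Members with under 10 counts in a library have levels that rest on few read pairs, and why their counts are low was not tested.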
